A study of Mus musculus with 3 samples.

Results

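The 36 genes described here encode the enzymes and transporters of glycolysis, the tricarboxylic acid (TCA) cycle and itaconate synthesis, with the oxygen-sensing genes that act on them. They were taken by name from a fixed list, and all 36 were found among 55536 annotated mouse genes. The RNA that stays bound to chromatin was sequenced without ribosomal RNA. It came from C57BL/6J bone marrow-derived macrophages, which are cultured from mouse marrow precursors. All libraries belong to 1 group, treated for 40 min with 100 ng/ml Lipid A, the part of bacterial lipopolysaccharide that Toll-like receptor 4 recognises. The group has 3 biological replicates, which started from RNA amounts of 1 µg (replicate 1), 250 ng (replicate 2) and 500 ng (replicate 3), and the labels cite the same donor entry for each. No untreated cells, other times or other cell fractions were analysed here, so a level says how much of a gene's RNA was on chromatin and not whether Lipid A changed it.

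Glycolysis splits glucose into pyruvate in the cytosol, and the TCA cycle oxidises the carbon of pyruvate in mitochondria. Macrophages activated through Toll-like receptors are known for a high rate of glycolysis, lactate release, a TCA cycle that is interrupted at several steps, and the synthesis of itaconate from the cycle intermediate aconitate by the enzyme that Acod1 (also called Irg1) encodes. Hypoxia-inducible factor (HIF) activates many glycolysis genes and is held low by prolyl hydroxylases of the Egln family. RNA on chromatin is largely nascent or not yet released, so it stands closer to transcription than the mRNA pool of the whole cell does.

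Replicates 1, 2 and 3 held 12699813, 18280033 and 18087091 expected counts in total, of which the 36 genes took 19969, 30492 and 26334, 0.157% ± 0.011 (SD, n = 3). Of 10 macrophage markers 8 were called higher than the reference gene defined below and 2, Fcgr1 and Tyrobp, on neither side. Of 29 markers of other cell types 28 were called lower in the authors' alignment-based table, which gives the values here unless another is named. Their summed TPM (a level scaled for transcript length and library size) lay between 3.85 and 7.08, with 11 markers at 0 in every library, and the exception, Cd4, stood at 2.5, 4.28 and 2.11. In the authors' second, alignment-free table none of the 29 was called higher, 26 were called lower, and their summed TPM lay between 30.4 and 39.7; the other 3 were Cd4, Cd3d (a T cell marker, 17.3, 14.1 and 19.3) and Pecam1 (an endothelial marker, 7.68, 4.45 and 8.04). Their part in the results below was not tested. Whether less RNA came from fewer cells or from less RNA per cell cannot be told apart in bulk samples.

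Each level was set against a reference gene (the midpoint of the 8765 nuclear protein-coding genes that were expressed), which lay at a TPM of 7.56, 6.64 and 6.56 in replicates 1, 2 and 3. A gene was called higher or lower where limma's treat method placed it more than 2-fold from this reference with an adjusted p under 0.05 (Benjamini-Hochberg over all genes tested). Of the 36 genes 9 were called higher (Hk3, Pfkfb3, Acod1, Pfkp, Pkm, Hk2, Sdha, Hif1a and Ogdh), 9 lower (Idh1, Fh1, Pfkm, Pdk1, Mdh1, Idh3a, Suclg1, Egln1 and Egln3) and 18 on neither side. With the reference taken from genes of at least 5 TPM the counts were 4 higher and 18 lower, and from genes of at least 0.1 TPM 14 higher and 5 lower. Over all 18425 genes tested 15.1% were called higher and 52.5% lower, and over the 12305 nuclear protein-coding genes among them 19.4% and 44.6%. The median of the 36 levels was -0.16 ± 0.20 log2 units from the reference (SD, n = 3), that of all genes tested -1.70 ± 0.07 and that of the protein-coding genes -1.07 ± 0.01. For 35 of the 36 genes the mean TPM reached 0.1, the minimum applied to genes on no list. Hif1a and Ogdh were no longer called higher, and Idh1 no longer lower, when any 1 of the libraries was left out, and Sdha lost its call without replicate 3.

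**Figure D1:**
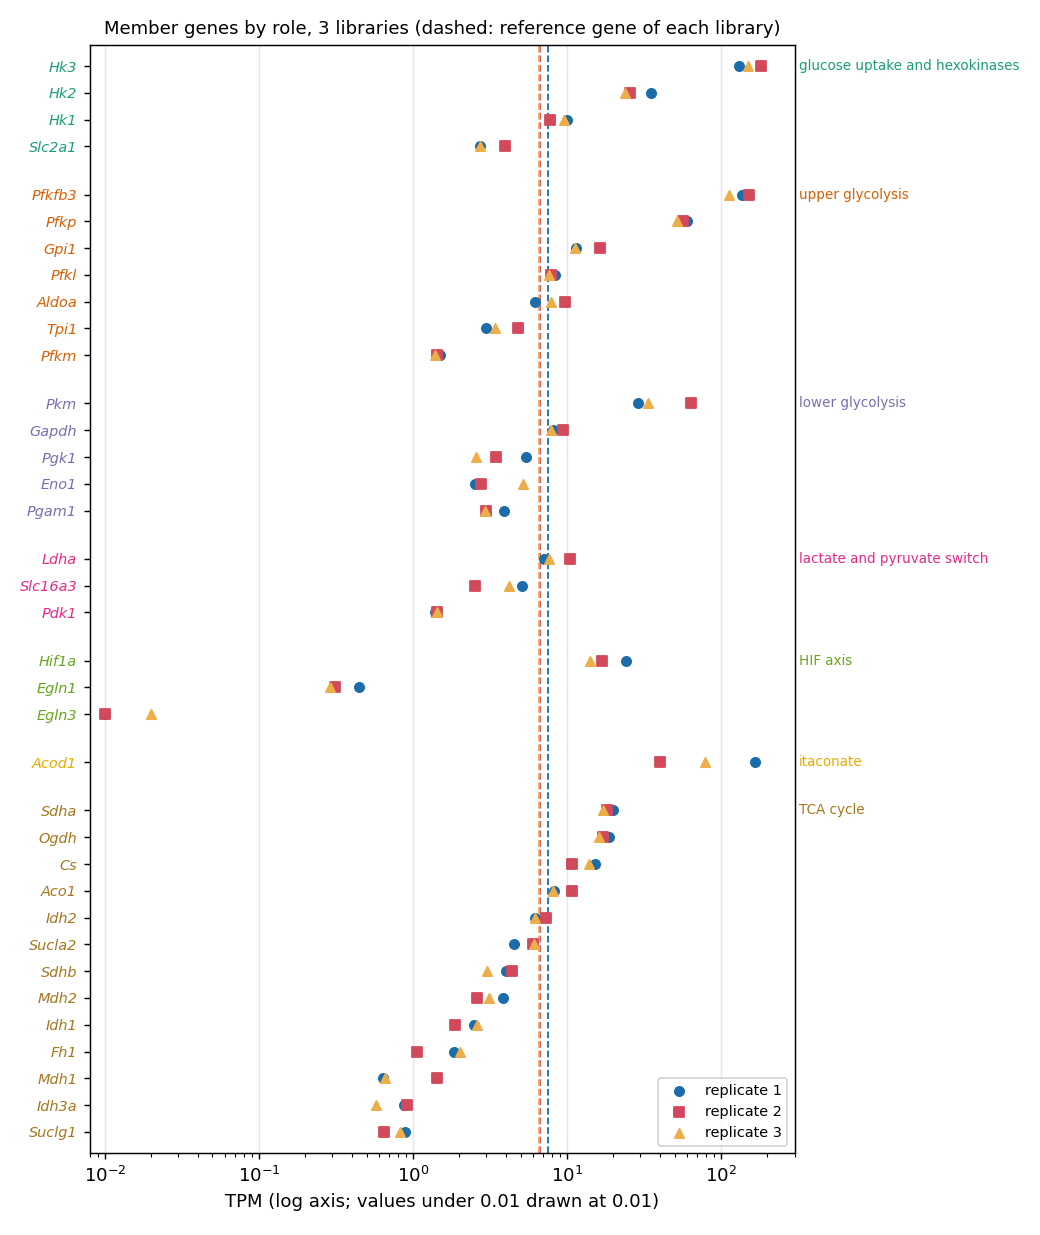
TPM (log axis) of the 36 genes in each library, grouped by role and ordered by mean within a role; dashed lines mark the reference gene of each library (7.56, 6.64 and 6.56). Hk3, Pfkfb3, Acod1, Pfkp and Pkm lie to the right of all lines in every library, and most TCA cycle genes lie near or to the left of them.

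The pool was uneven. The 3 genes with the highest means, Hk3, Pfkfb3 and Acod1, held 55.3% ± 2.50 of the summed TPM of the 36 genes (SD, n = 3). With Pfkp and Pkm added the share was 69.6% ± 0.82. In the order of mean levels, 6 of 35 pairs of neighbouring genes had ranges over the 3 libraries that did not overlap: Ogdh lay clear of Cs, Gpi1 of Hk1, Idh2 of Sucla2, Slc2a1 of Idh1, Suclg1 of Egln1, and Egln1 of Egln3. From Hk3 down to Ogdh the range of each gene overlapped that of the next.

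The 250 bases before the RefSeq start sites (GRCm38.p6) of the 3 highest genes, and of the HIF target Ldha for comparison, are printed 5′ to 3′ on the strand of the gene because the highest levels turn on these genes. Capitals mark ACGTG, the core of the HIF response element, and its other form GCGTG, on either strand, so a match on the opposite strand shows its complement. Where matches on both strands overlap, the capitals run on as a palindrome of 6 bases.
Hk3, chr13:55021386-55021635, minus strand: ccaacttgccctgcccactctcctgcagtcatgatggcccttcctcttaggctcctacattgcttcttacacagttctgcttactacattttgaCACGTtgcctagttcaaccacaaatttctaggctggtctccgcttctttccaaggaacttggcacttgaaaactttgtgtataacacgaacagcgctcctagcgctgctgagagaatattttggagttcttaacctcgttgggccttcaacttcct
Pfkfb3, chr2:11553930-11554179, minus strand: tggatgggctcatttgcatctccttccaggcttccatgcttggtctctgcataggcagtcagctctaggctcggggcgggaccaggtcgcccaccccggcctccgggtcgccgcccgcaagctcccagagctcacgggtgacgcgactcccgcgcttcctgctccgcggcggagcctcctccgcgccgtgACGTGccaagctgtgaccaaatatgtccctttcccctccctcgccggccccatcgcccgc
Acod1, chr14:103046762-103047011, plus strand: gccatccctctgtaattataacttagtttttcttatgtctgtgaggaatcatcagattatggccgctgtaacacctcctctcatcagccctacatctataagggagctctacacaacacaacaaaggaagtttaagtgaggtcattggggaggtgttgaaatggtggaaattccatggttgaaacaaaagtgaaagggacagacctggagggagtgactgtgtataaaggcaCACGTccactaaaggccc
Ldha, chr7:46845554-46845803, plus strand: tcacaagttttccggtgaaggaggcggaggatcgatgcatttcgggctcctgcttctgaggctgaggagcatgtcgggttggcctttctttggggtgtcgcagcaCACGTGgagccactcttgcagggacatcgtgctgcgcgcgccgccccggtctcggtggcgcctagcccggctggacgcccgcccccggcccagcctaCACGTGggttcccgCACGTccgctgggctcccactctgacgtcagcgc

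Matches were counted in windows of 300 bases, these 250 and the 50 after the start. RefSeq held 53 such windows for 35 of the 36 genes. Either motif was found in 43 of the 53 windows (81.1%) and in 43.8% of all 32851 windows of the table; the windows of these genes held a median of 21 CpG dinucleotides and all windows 7. Among windows with at least 20 CpG the shares were 90.3% of 31 and 73.6% of 8701. Counted singly, ACGTG was in 19 of those 31 windows (61.3%) and in 29% of the 8701. GCGTG was in 19 of the 31 (61.3%) and in 63.5% of the 8701, so only the share of ACGTG stood apart. Several windows belong to the same gene and overlap, so they are not independent.

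Within the 250 printed bases Acod1 had 2 CpG and Hk3 6, against 24 for Pfkfb3 and 25 for Ldha. Acod1 had its match at position -18 from the start and Hk3 at -156, both on the opposite strand, and Pfkfb3 at -60 on its own strand. At its other start, not printed, Pfkfb3 had ACGTG at -52 and, on the opposite strand, at -53, and GCGTG at -122 and 37. The other start of Ldha had GCGTG and no ACGTG. The NF-κB consensus was found in 2 of the 53 windows (3.77%), of Sdhb and Ogdh, and in 4.51% of all windows. TATAAA on the gene's strand was in 2 windows (3.77%), of Acod1 and Slc2a1, and in 8.32% of all. These matches describe letters and not binding.

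Glucose enters through transporters such as the one encoded by Slc2a1 (GLUT1) and is trapped in the cell by hexokinases. Hk3, a hexokinase gene expressed in myeloid cells, reached a TPM of 130 (3443 expected counts) in replicate 1, 183 (9528) in replicate 2 and 149 (6970) in replicate 3. Its level was 4.44 ± 0.17 (SE) log2 units over the reference (adjusted p = 6.4e-05, limma treat; higher in 3 of 3 libraries) and stood at percentile 97.5 of expressed protein-coding genes. Hk3 occupies positions 55005985 to 55021385 of chromosome 13 (mm10, minus strand, up to 19 exons in a coding isoform). Its end overlaps that of Unc5a on the opposite strand, which had a TPM of 14.9 ± 1.84, and whether counting used the strand is not stated.

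Hk2, the inducible hexokinase, had a TPM of 35.1, 25.6 and 23.9, which is 1.99 ± 0.13 (SE) log2 units over the reference (adjusted p = 0.00064, limma treat; higher in 3 of 3 libraries). Hk1, the broadly expressed form, stood at 9.93, 7.76 and 9.63, and Slc2a1 at 2.73, 3.98 and 2.74. Neither Hk1 nor Slc2a1 passed the test (0.39 ± 0.14 and -1.13 ± 0.20 log2 units from the reference). The order Hk3, Hk2, Hk1 held without overlap in each library. Hk3 exceeded Hk2 by 2.45 ± 0.50 log2 units (SD, n = 3) and Hk2 exceeded Hk1 by 1.61 ± 0.27 (2.64 on counts per kilobase of merged exons); for these and all other isozyme pairs below, 9 in all, the exact two-sided sign-flip permutation test gave p = 0.25, raw and adjusted over the pairs, the smallest value that 3 libraries allow.

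Phosphofructokinase commits sugar to glycolysis, and Pfkfb3 encodes the enzyme that makes its strongest activator. Pfkfb3 reached a TPM of 137, 151 and 113, which is 4.25 ± 0.14 (SE) log2 units over the reference (adjusted p = 4.9e-05, limma treat; higher in 3 of 3 libraries). The gene spans 82.6 kb of chromosome 2 (11471433 to 11554077, mm10, minus strand). Of the 3 phosphofructokinase genes, Pfkp (platelet type) stood highest, at 60.5, 56.5 and 51.4, or 3.00 ± 0.11 (SE) log2 units over the reference (adjusted p = 9.2e-05, limma treat). Pfkl (liver type) lay at 8.34, 7.87 and 7.63, on neither side, and Pfkm (muscle type) at 1.5, 1.44 and 1.39, called lower (-2.18 ± 0.18 SE; adjusted p = 0.0012, limma treat).

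These isozyme distances varied little between libraries. Pfkp exceeded Pfkl by 2.85, 2.83 and 2.74 log2 units in replicates 1, 2 and 3, and Pfkl exceeded Pfkm by 2.40, 2.37 and 2.38. The distance from Pfkl to Pfkm rests on the quantification: it was 1.07 in the alignment-free table and 0.97 on counts per kilobase of merged exons. Pfkp overlaps the end of Pitrm1 on the opposite strand, at a TPM of 17.9 ± 2.98.

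The other genes of upper glycolysis were not called. Gpi1 (glucose phosphate isomerase) had a TPM of 11.5, 16.4 and 11.3, Aldoa (aldolase A) 6.18, 9.77 and 7.82, and Tpi1 (triose phosphate isomerase) 2.98, 4.82 and 3.4. Replicate 2 was the highest library for each of the 3 genes. The symbol Aldoa is shared by a second annotated gene, listed at 0 in every library, and the values are those of the gene whose start matches RefSeq.

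In lower glycolysis Pkm, which encodes pyruvate kinase, was the only gene called of 5. Its TPM was 29.1, 64 and 33.5, 2.51 ± 0.26 (SE) log2 units over the reference (adjusted p = 0.0019, limma treat; higher in 3 of 3 libraries). Replicate 2 held about as much as both other libraries together. Gapdh, whose mRNA is among the most abundant of most cells and is used as a loading control, stood at 8.10, 9.41 and 7.83, at percentile 55.1 of expressed protein-coding genes and 0.28 ± 0.14 (SE) log2 units from the reference.

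Pfkfb3 thus had 16.9, 16.1 and 14.4 times the TPM of Gapdh, and Hk3 16.1, 19.4 and 19 times. These ratios depend on the quantification: for Pfkfb3 they were 31.3, 39.9 and 30.5 in the alignment-free table and 7.7, 8.7 and 7.1 on counts per kilobase of merged exons. For Hk3 they were 34.2, 52.6 and 38.7, and 27.6, 51.1 and 39.8. Pgk1 (phosphoglycerate kinase) had a TPM of 5.39, 3.47 and 2.56, Eno1 (enolase) 2.52, 2.76 and 5.21, and Pgam1 (phosphoglycerate mutase) 3.93, 2.97 and 2.93. All 3 lay below the reference gene in each library, by a mean of -0.91 to -1.07 log2 units, and none was called. Reads of these genes could be shared with near-identical copies: of 14 related genes and processed pseudogenes 11 were listed at 0 in every library, and the highest, Pgam1-ps1, had a TPM of 1.21, 0.35 and 0.55. Iffo1, whose end overlaps that of Gapdh on the opposite strand, had a TPM of 17 ± 1.89.

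Pyruvate kinase is made in an M1 and an M2 form from the same gene, by including either the upstream or the downstream of a pair of neighbouring exons, and activated macrophages are known for the M2 form. The 2 exons are each 167 bases long, lie on chromosome 9 (mm10, plus strand) as exon 9 of their isoform, and are coding throughout. They are shown because they decide which form a transcript encodes; capitals mark the 64 positions at which they differ when laid end to end without gaps (61.7% identical).
Pkm-202, upstream exon, chr9:59675029-59675195: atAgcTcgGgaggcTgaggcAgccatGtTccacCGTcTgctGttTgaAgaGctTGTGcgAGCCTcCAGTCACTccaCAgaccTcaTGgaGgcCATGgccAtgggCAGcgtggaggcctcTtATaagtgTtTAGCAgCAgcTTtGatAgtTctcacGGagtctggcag
Pkm-201, downstream exon, chr9:59675568-59675734: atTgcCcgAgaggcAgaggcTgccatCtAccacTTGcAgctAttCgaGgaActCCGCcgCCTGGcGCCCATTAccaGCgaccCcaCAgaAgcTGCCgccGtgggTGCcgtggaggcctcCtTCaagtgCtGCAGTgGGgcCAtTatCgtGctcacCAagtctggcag

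The isoform with the downstream exon had a TPM of 10.1, 22 and 11.8, and the one with the upstream exon 3.68, 12.6 and 5.77. The upstream isoform was thus 26.7%, 36.4% and 32.9% of both full-length isoforms, 32.0% ± 4.90 (SD, n = 3), and 36.5% ± 5.40 in the alignment-free table. Both isoforms together held 51.2% ± 3.52 of the gene's TPM. The isoforms also differ in their first and last exons, and the share of unspliced RNA in either exon was not measured, so the values are estimates of the quantification and not counts of exon junctions. Gm49759, a same-strand transcript annotated across these exons, had a TPM of 8.75 ± 2.75.

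Lactate and pyruvate genes stood near or below the reference. Ldha, which encodes lactate dehydrogenase A, had a TPM of 7.14, 10.4 and 7.68, and Slc16a3, the lactate exporter MCT4, 5.13, 2.52 and 4.21; neither was called. Pdk1, a kinase that holds pyruvate out of the TCA cycle, stood at 1.39, 1.44 and 1.44 and was called lower (-2.20 ± 0.19 SE log2 units; adjusted p = 0.0013, limma treat; lower in 3 of 3 libraries).

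On the HIF axis Hif1a stood above the reference and the hydroxylase genes Egln1 and Egln3 below it, while the third, Egln2 (PHD1), lay on neither side at 6.28, 6.32 and 6.74. Hif1a had a TPM of 24.1, 17 and 14.1, 1.37 ± 0.15 (SE) log2 units above it (adjusted p = 0.043, limma treat; higher in 3 of 3 libraries). Egln1 (PHD2) stood at 0.45, 0.31 and 0.29 on 21, 24 and 21 expected counts, -3.98 ± 0.27 (SE) log2 units from the reference (adjusted p = 0.00029, limma treat). Egln3 (PHD3) had 0, 0 and 1 expected counts, which is below the 3 counts that a 0 allows, so no fold is given. The call of Hif1a depended on the setting: it held in 6 of 14 alternatives.

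Acod1 encodes the enzyme that makes itaconate, which blocks succinate dehydrogenase and is known as an anti-inflammatory metabolite. Its TPM was 165 in replicate 1 (5494 expected counts), 39.9 in replicate 2 (2169) and 78.5 in replicate 3 (3981). In the alignment-based table it was the highest of the 36 genes in replicate 1, and lay below Hk3, Pfkfb3, Pkm and Pfkp in replicate 2. In the alignment-free table Acod1 stood at 203 in replicate 1, below Hk3 (298) and Pfkfb3 (273). There it had 41.5 in replicate 2, also below Hk2 (45.1), so its rank depends on the table. In the alignment-based table its mean level was 3.52 ± 0.35 (SE) log2 units over the reference (adjusted p = 0.00082, limma treat; higher in 3 of 3 libraries), with the largest spread of the 36 genes. Acod1 occupies positions 103046977 to 103056573 of chromosome 14 (mm10, plus strand), has 1 annotated isoform of 5 exons and overlaps no other annotated gene on either strand.

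Some genes within 100 kb shared that order of libraries in part. Kctd12, 64.3 kb upstream, had a TPM of 274, 95.5 and 258, and Gm26778, a noncoding gene that overlaps Kctd12 on the opposite strand, 230, 70.3 and 226. Gm34643, a noncoding gene 22.5 kb upstream, stood at 6.09, 2.25 and 3.85. Mycbp2, 56.8 kb downstream, differed little, at 50.2, 47 and 52.3. Replicate 2 was the lowest library for each of these 5 genes, Acod1 included. They are not all the genes of the interval. By level against the reference gene, a different scale, replicate 2 was the lowest library for 41.9% of 18387 genes.

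**Figure D2:**
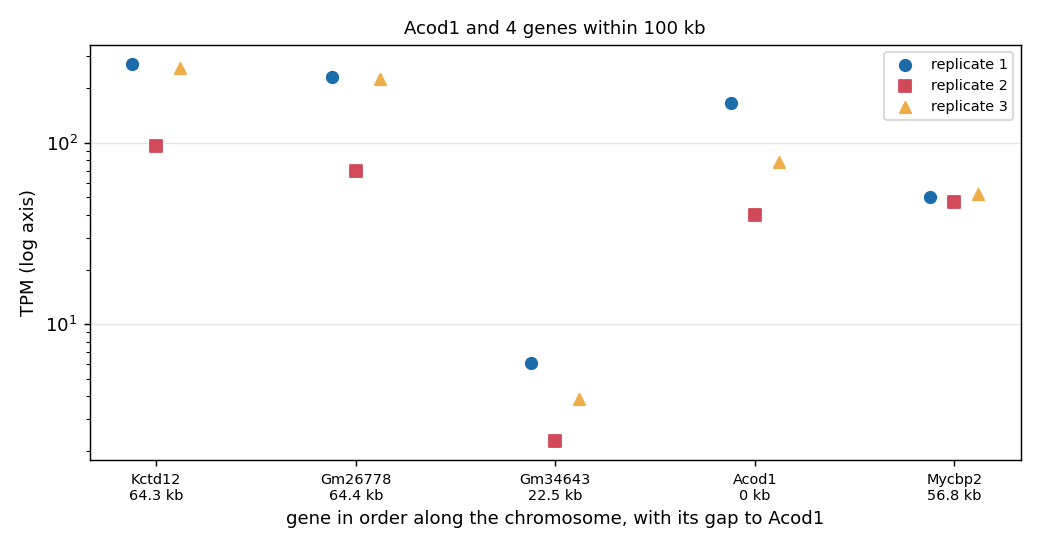
TPM (log axis) of Acod1 and 4 genes within 100 kb, in order along the chromosome, with the gap to Acod1 in kb; points are libraries. Replicate 2 is the lowest point of each gene shown, by most for Acod1 (39.9 against 165 and 78.5), Kctd12 and Gm26778.

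The 13 TCA cycle genes split into 2 called higher, 5 lower and 6 on neither side. Sdha, the catalytic subunit of succinate dehydrogenase, had a TPM of 19.8, 18.2 and 17.2, 1.40 ± 0.11 (SE) log2 units over the reference (adjusted p = 0.013, limma treat). Ogdh, the first subunit of the 2-oxoglutarate dehydrogenase complex, stood at 18.8, 17.2 and 16.1 (1.31 ± 0.11 SE; adjusted p = 0.030, limma treat). Both were higher in 3 of 3 libraries. Sdhb, the iron-sulfur partner of Sdha in the same complex, had 4.03, 4.42 and 3.02 and was not called.

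The entry enzymes lay near the reference. Cs (citrate synthase) stood at 15.1, 10.8 and 13.9, and Aco1, the cytosolic aconitase, at 8.25, 10.7 and 8.12. Idh2, the mitochondrial NADP-dependent isocitrate dehydrogenase, had 6.19, 7.27 and 6.22, above the cytosolic Idh1 at 2.48, 1.88 and 2.62 by 1.47 ± 0.37 log2 units (SD, n = 3). Idh1 was called lower (adjusted p = 0.022, limma treat). Mdh2, the mitochondrial malate dehydrogenase, had 3.87, 2.59 and 3.12 and was not called. It exceeded the cytosolic Mdh1, at 0.64, 1.44 and 0.66, by 2.42, 0.80 and 2.08 log2 units. So in both pairs the mitochondrial form stood above the cytosolic form in each library. In the alignment-free table the mean distances were 0.71 for the Idh pair and 2.86 for the Mdh pair, and on counts per kilobase of merged exons 0.89 and 1.19.

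The TCA cycle genes with the lowest means were Suclg1, at 0.89, 0.65 and 0.82, Idh3a, at 0.87, 0.92 and 0.58, and Mdh1, given above, and their ranges overlapped. Suclg1 encodes the shared subunit of succinyl-CoA ligase and rested on 11, 25 and 20 expected counts; in the alignment-free table it stood at 5.24, 2.83 and 5 and was not called. Its ADP-specific partner Sucla2 had a TPM of 4.56, 6.04 and 6.07. Fh1 (fumarase) stood at 1.84, 1.06 and 2.02, called lower (-2.06 ± 0.24 SE; adjusted p = 0.0053, limma treat). In all, 19, 15 and 14 of the 36 genes had under 100 expected counts in replicates 1, 2 and 3.

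The median of the 19 glycolysis genes (uptake to lactate) exceeded that of the 13 TCA cycle genes by 0.81, 0.82 and 1.27 log2 units in replicates 1, 2 and 3, or 0.97 ± 0.26 (SD, n = 3). By steps, the median was highest for uptake and hexokinases (1.19 ± 0.11), then upper glycolysis (0.31 ± 0.21), lower glycolysis (-0.57 ± 0.31) and the lactate and pyruvate genes (-0.85 ± 0.45), with the TCA cycle at -0.84 ± 0.24. These are descriptions of lists chosen with earlier results known.

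Further genes of the same pathways, from lists fixed by function, are given for context, with calls and zeros of the alignment-based table. Of 22 other glycolysis and gluconeogenesis genes 2 were called higher, 15 lower and 5 on neither side, and 5 were listed at 0 in every library (among them Fbp1, Fbp2, Pgk2 and Pklr, forms known from liver, muscle, testis and red cells). Pklr stood at 1.56, 0.679 and 1.47 in the alignment-free table, where 3 genes of this list were called higher and 11 lower. The 2 called higher were Slc2a6, a lysosomal hexose transporter gene, at 104, 47.4 and 73.6, and Eno2, an enolase gene, at 26.4, 31.9 and 26.8. Eno2 thus stood above Eno1 in each library. Slc2a6 had the library order of Acod1, highest in replicate 1 and lowest in replicate 2. That order is common: by level against the reference gene, replicate 1 was the highest library for 42.9% of 18387 genes. Replicate 2 was the lowest for 41.9% of them.

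Of 17 lactate and pyruvate genes 1 was higher, Mpc1, a subunit of the mitochondrial pyruvate carrier (25.5 ± 10.4), and 12 were lower; Dld, shared by several dehydrogenase complexes, had 15.6 ± 4.37 and was not called. Ldhc and Pdk4 were listed at 0, but Pdk4 stood at 0.851, 1.15 and 2.31 in the alignment-free table, where Dld was called higher. Of 8 pentose phosphate genes 1 was higher and 2 lower: Pgd stood at 25.9 ± 5.41, Rpe, on neither side, at 5.55 ± 1.19 and Rpia, called lower, at 0.213 ± 0.119. In the alignment-free table Rpia stood at 5.69, 3.03 and 4.07 and was not called. Of 11 other TCA cycle genes 3 were higher and 5 lower. Dlst, the core subunit of the complex that Ogdh belongs to, had the highest level, 113, 73.2 and 79.4 in replicates 1, 2 and 3, then Idh3b at 26.9 ± 5.24, and the assembly factor gene Sdhaf1 the lowest (0.06 ± 0.0173).

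Of 8 genes of citrate export and itaconate breakdown 1 was higher (Acaca, the first enzyme of fatty acid synthesis, 21.5 ± 1.46) and 1 lower (Clybl, an enzyme of itaconate breakdown, 0.587 ± 0.333); Acly, which splits exported citrate, stood at 13 ± 1.38. Auh, of the same list, stood at 10.7 ± 1.06 and was not called. In the alignment-free table Auh stood at 49.7, 38.2 and 51.7 and was called higher, while Clybl was again called lower. Of 8 HIF pathway genes 1 was higher and 4 lower. Arnt, the partner of HIF-α subunits, had 40 ± 6.95, Cited2 16.1 ± 4.21, on neither side, and Hif3a the lowest level (0.00333 ± 0.00577). In the alignment-free table Hif3a, still called lower, stood at 4.09, 1.18 and 2.15, with a mean above that of Arnt2 (0.8, 1.22 and 1.13). Of 13 HIF targets outside glycolysis 3 were higher and 7 lower, from Vegfa, the vascular growth factor, at 147, 145 and 152 and the demethylase gene Kdm3a at 32.1 ± 5.71 to Bnip3 at 0.22 ± 0.154. Over all genes tested 15.1% were called higher and 52.5% lower, and over the nuclear protein-coding genes 19.4% and 44.6%. Genes on both sides of the reference are thus not particular to HIF targets.

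Between libraries, on log2 CPM (CPM is a count divided by its library's scaled total, here scaled by TMM), the median SD of the 35 genes past the count filter was 0.26, and 0.27 over all 12931 genes. Of these 35 genes 24 were lowest in replicate 1, 4 in replicate 2 and 7 in replicate 3; over all genes the shares were 37.9%, 38.3% and 23.8%. Without TMM scaling 14, 6 and 15 genes were lowest in replicates 1, 2 and 3, and by level against the reference gene 16, 8 and 11, so the count for replicate 1 depends on the scaling. Of the 11 genes of uptake and upper glycolysis 11 were lowest in replicate 1 with TMM scaling, 6 without it and 7 by level. Replicate 1 also had the fewest counts and the most input RNA, and input and replicate cannot be told apart.

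The 5 genes with the largest SD were Acod1 (0.86), Pkm (0.75), Mdh1 (0.60), Hk3 (0.55) and Slc2a1 (0.54). Acod1 deviated from its mean by 0.84, -0.88 and 0.04 log2 units in replicates 1, 2 and 3, Pkm by -0.64, 0.83 and -0.19, and Hk3 by -0.58, 0.49 and 0.09. Mdh1 deviated by -0.39, 0.69 and -0.30, and Slc2a1 by -0.53, 0.54 and -0.01. Replicate 2 was thus the lowest library for Acod1 and the highest for the other 4 genes.

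**Figure D3:**
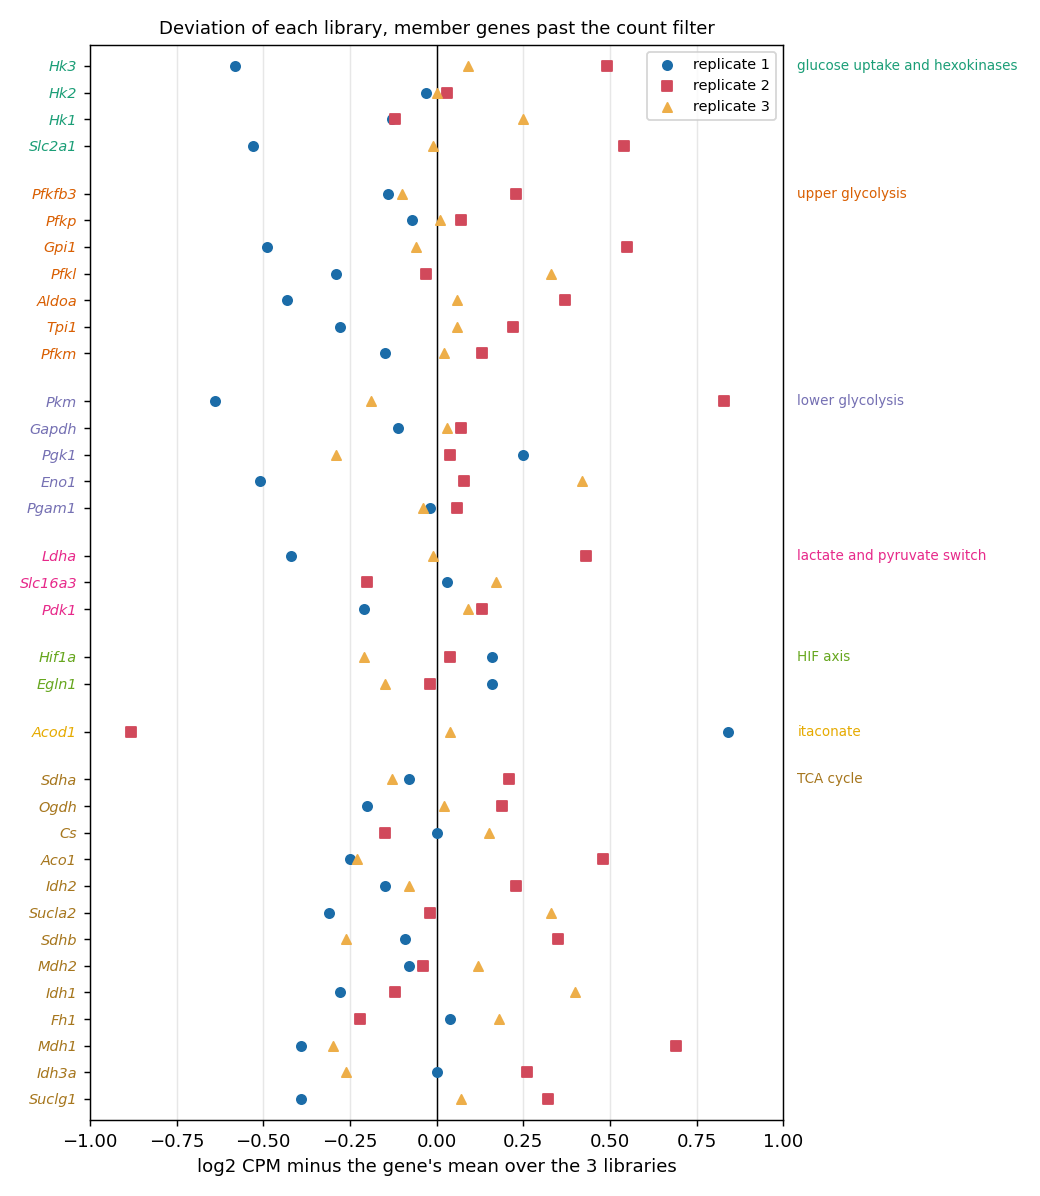
Log2 CPM of each library minus the gene's mean over the 3 libraries, for the 35 genes past the count filter, by role. Acod1 runs from 0.84 in replicate 1 to -0.88 in replicate 2, while most glycolysis genes have replicate 1 leftmost and replicate 2 rightmost.

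Much of the RNA of these genes was assigned to isoforms annotated as retained intron, which hold intron sequence. The retained-intron share, the percentage of a gene's TPM in such isoforms, was computed for the 22 genes that averaged 1 TPM or more and have both such an isoform and a protein-coding isoform annotated. Its median over them was 47.2%, 41.9% and 42.9% in replicates 1, 2 and 3; over all 5826 genes with such isoforms it was 42.9%, 38.8% and 38.8%. Pfkp had 96.3%, 92.5% and 87.4%, at percentile 99.0 of those genes, and Gpi1 90.1%, 89.2% and 84.6%, at percentile 98.2. The leading isoform of Pfkp was 1 of 7 such isoforms, 8681 bases long. Protein-coding isoforms held 7.51% of the TPM of Pfkp and 11.5% of that of Gpi1 in the alignment-based table. In the alignment-free table the retained-intron shares of both were lower, 73.6% for Pfkp and 74.7% for Gpi1.

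Pfkfb3 (60.6% ± 6.98), Mdh2 (60.0% ± 12.9), Eno1 (58.2% ± 12.1), Hif1a (57.4% ± 2.16), Gapdh (53.2% ± 12.9) and Cs (52.9% ± 4.91) were above 50% (SD, n = 3). Protein-coding isoforms held 11.3% of the TPM of Pfkfb3. Its leading isoform, a retained-intron isoform of 646 bases, held 24%. In Hif1a a single isoform of 693 bases with 2 exons held 57.2% of the TPM. Ogdh (14.5% ± 3.63) and Fh1 (9.79% ± 9.29) had the lowest shares. In the alignment-free table Gapdh stood at 80.3% and Pfkfb3 at 50.3%, so the order of the genes depends on the table. For Hk3, Hk2 and Acod1 no retained-intron isoform is annotated. Acod1 has 1 isoform, so its intronic RNA, if present, has no isoform to be assigned to. Protein-coding isoforms held 47.5% of the TPM of Hk3 and 85.9% of that of Hk2. Whether the other isoforms of Hk3 and Hk2 hold intron sequence was not checked.

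**Figure D4:**
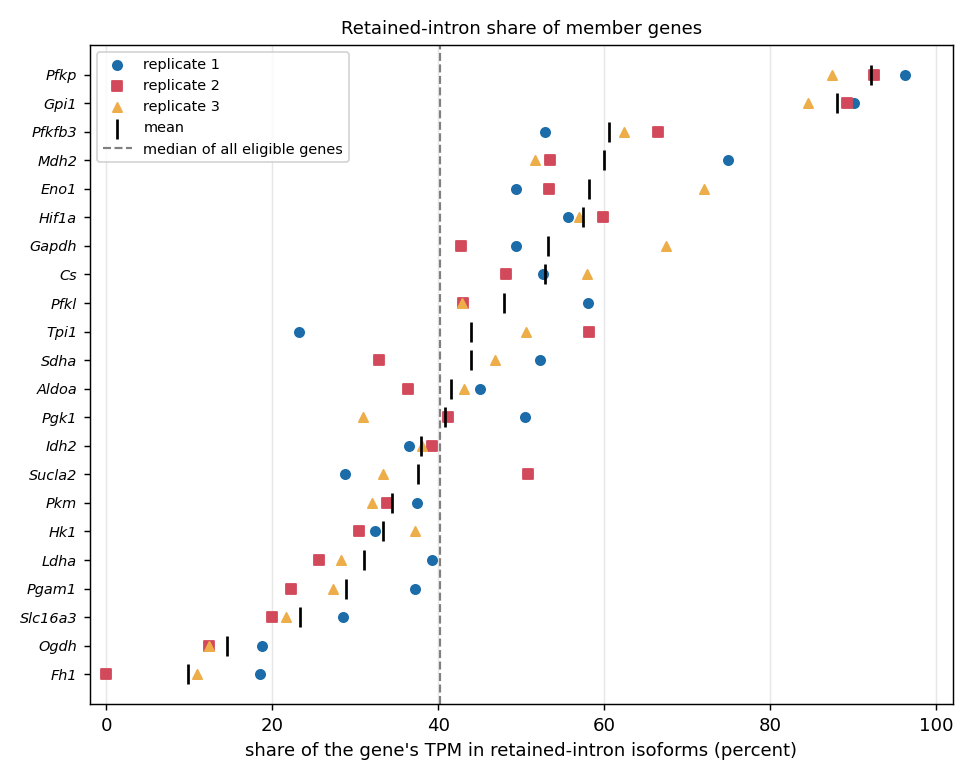
Share of TPM in retained-intron isoforms (percent) for the 22 genes with such isoforms, per library, with the mean as a bar; the dashed line is the median over all such genes (40.2%). Pfkp and Gpi1 lie at 84.6% or more in every library, and Fh1 and Ogdh at 18.7% or less.

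The alignment-free table was compared gene by gene. Against its own reference gene, the alignment-free level of 4 of the 36 genes differed by over 2-fold in every library, in 1 direction; 21.6% of all genes tested did. All 4 were higher in the alignment-free table: Suclg1 by 2.19, 2.17 and 2.36 log2 units, Pfkm by 2.02, 1.71 and 1.52, Slc2a1 by 1.28, 1.37 and 1.12, and Fh1 by 1.32, 1.09 and 1.32. The median difference of the 36 genes was 0.47, the same as over all genes tested. Suclg1, Fh1, Pfkm and Idh1 were not called lower in the alignment-free table, while all 9 genes called higher were called there too. Acod1 differed least of the 3 highest genes (0.06, 0.26 and 0.08).

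**Figure D5:**
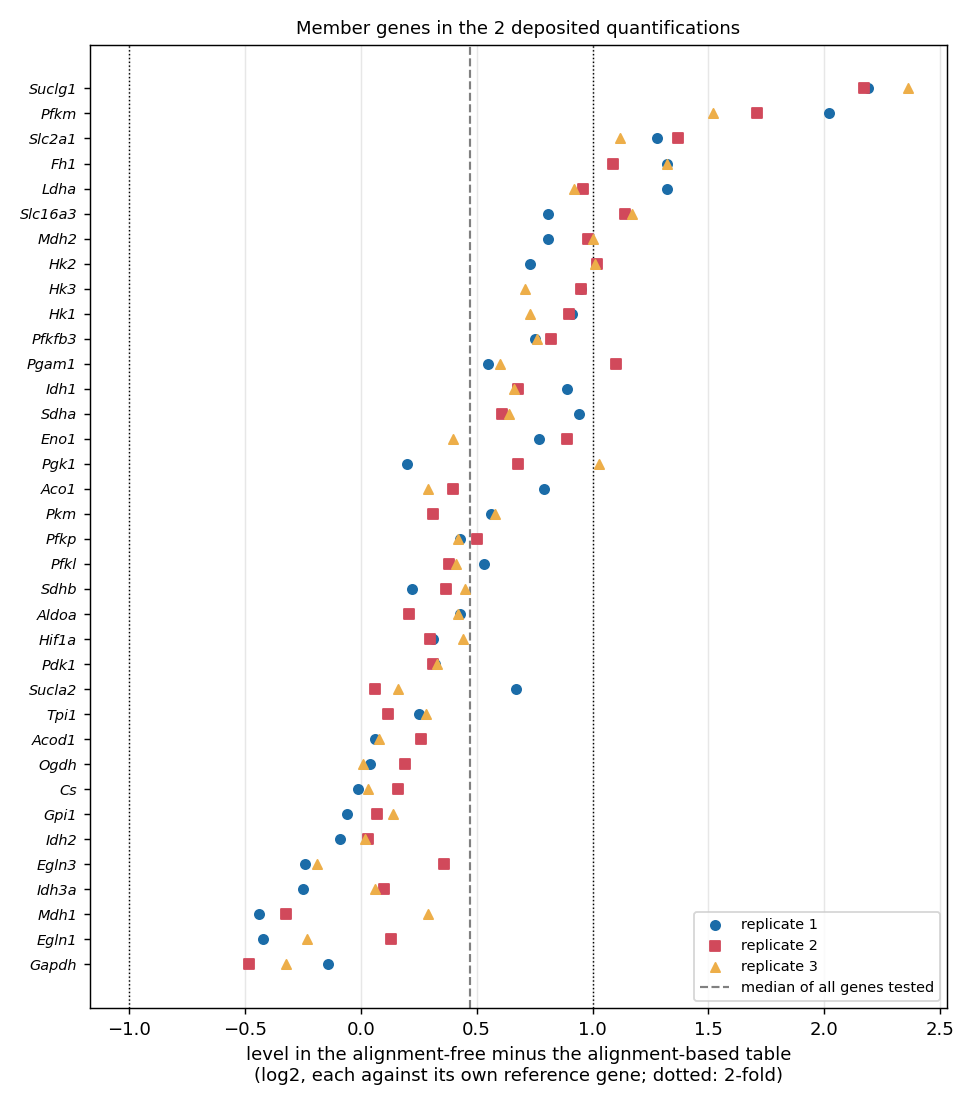
Level in the alignment-free minus that in the alignment-based table (log2, each against its own reference gene) for the 36 genes in each library; dotted lines mark 2-fold and the dashed line the median of all genes tested (0.47). Suclg1, Pfkm, Slc2a1 and Fh1 lie beyond 2-fold in all libraries, on the side of the alignment-free table.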

How the data were processed

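Chromatin-associated RNA of 3 libraries was analysed from the tables the authors deposited. Per the file headers, the alignment-based gene and transcript tables hold expected counts, TPM and FPKM, and the alignment-free transcript tables estimated counts and TPM. Per the deposited notes they refer to mm10 and annotation M21; which programs made them, and whether strand was used, is not given in the sources used here. Rows for tRNA, spike-ins and phiX, 1.2582%, 0.2231% and 0.2% of expected counts in replicates 1, 2 and 3, stayed out of tests.

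Levels are log2(TPM + 0.1) minus the reference gene, the median in that library of protein-coding genes of the nuclear genome that averaged 1 TPM or more; fold changes on this scale understate differences of genes near 0. limma 3.58.1 (treat, 2-fold band, trended variance, two-sided, Benjamini-Hochberg) tested every gene that averaged 0.1 TPM or more, and all listed genes. Spread used edgeR 4.0.16 on rounded expected counts (TMM, filterByExpr with a minimum count of 10, prior count 2). The methods were tested on simulated data. P-values measure the spread between these libraries, which cite the same donor entry and may share more than separate animals would. A count of 0 allows up to 3 counts, 2.36e-05%, 1.64e-05% and 1.66e-05% of the totals; intervals and floors cover counting error only.

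Members and lists were chosen with earlier results of these data known. All 36 members could be named; of each further list, the 2 genes with the highest mean TPM and the lowest called gene; copies from a mean TPM of 1 (Pgam1-ps1, the highest, was added after its value was seen). Genes listed at 0 and the markers Fcgr1, Tyrobp and Cd4 were likewise named after their values were seen. Some genes that this rule names are not reported here. Of the listed symbols, 1 (Ero1a) was not matched. Alternatives were other pseudocounts, filters, bands, reference genes, tables, scalings, FPKM as deposited by the authors, and leaving out each replicate. RefSeq promoter windows and exon sequences of annotation M21 were copied by script.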

Additional observations from a re-analysis of the deposited data

How the results depend on the processing

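Under 14 alternatives none of the 36 genes changed sides of the reference gene with a call. Of the 18 called genes, 8 kept their call in every alternative that could give a value: Hk3, Pfkfb3, Acod1, Pfkp, Mdh1, Idh3a, Egln1 and Egln3. The counts of 9 higher and 9 lower depended on where the lines are drawn. A 4-fold band gave 4 higher and 5 lower, no band 17 lower (and 12 higher), reference genes from a TPM of 5 gave 4 higher and 18 lower, and from a TPM of 0.1, 14 higher and 5 lower. Raising the filter to an average of 1 TPM left 4 lower, since 5 of the lower genes were then not tested. The alignment-free table gave 5 lower; the cause was not tested. Leaving out a replicate gave 6 to 7 higher and 8 lower. The glycolysis minus TCA cycle difference of 0.97 was 1.26 with list means and 0.67 on counts per kilobase of merged exons, an alternative added after the data were seen, and 0.81 to 1.05 without a replicate. Genes lowest in replicates 1 and 3 numbered 14 and 15 without scaling, and those lowest in replicates 2 and 3 numbered 8 and 11 on log2(TPM + 0.1). At 1.5-fold 13 genes differed between both quantifications, at 4-fold 1, and without a replicate 4 to 6. The retained-intron median of 44.0% was 46.7% in the alignment-free table and 42.4% to 45.1% without a replicate. No paired analysis was possible because the series holds 1 group. Levels of genes with few counts (Egln1, Egln3, Suclg1, Mdh1 and Idh3a, each under 50 counts in every library) are limited by depth.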

Other observations

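A few genes outside the 36 were looked up after their values were seen. Pcx, which encodes pyruvate carboxylase, stood at a TPM of 0.09, 0.17 and 0.09 (replicates 1, 2 and 3) in the alignment-based table and at 29.7, 18 and 15.7 in the alignment-free table, so whether this entry point of the TCA cycle stood low or well above the reference gene depends on the table. The succinate dehydrogenase complex was uneven: Sdha stood at 18.4 ± 1.34 and Sdhb at 3.82 ± 0.723, while Sdhc (0.8 ± 0.511) and Sdhd (0.787 ± 0.188) were called lower (adjusted p = 0.0019 and 0.0007, limma treat; TPM, SD, n = 3). In the alignment-free table Sdhc stood at 4.93, 3.12 and 6.29 and was not called, and Sdha had 4.6 to 9.2 times its TPM, against 12.4 to 40.5 times in the alignment-based table. The 3 parts of isocitrate dehydrogenase 3 differed likewise, with Idh3b at 26.9 ± 5.24, Idh3g at 5.35 ± 0.937 and Idh3a at 0.79 ± 0.184. Idh3b had 26 to 43.8 times the TPM of Idh3a in the alignment-based table, 28.1 to 37.2 times in the alignment-free table and 26.9 to 41.5 times on counts per kilobase of merged exons.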
